A study of Mus musculus with 12 samples.

Results

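10 integrin subunit genes were followed in mouse bone marrow-derived macrophages: Itgam, Itgax, Itgal, Itgb2, Itga4, Itga5, Itgav, Itgb1, Itgb3 and Itgb5. They were taken by gene name from a table of FPKM (fragments per kilobase of gene, scaled to library depth) and are 10 of its 32246 genes. All 10 passed the filter on low values (1 FPKM or more in 4 or more of 12 libraries), as did 11165 genes in all, which were tested together.

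Bone marrow cells were differentiated with GM-CSF at 50 ng/mL over 7 days in all 3 groups, and total RNA was sequenced after a further treatment period of 24 h. The untreated group had no addition. The PLG+EACA group received plasminogen (PLG, the circulating precursor of the protease plasmin) that had been exposed to EACA, a lysine analogue that occupies the lysine-binding sites of plasminogen. The PLG+EACA+RNase group received plasminogen exposed to EACA together with RNases, and from the title of the series the question is what the small RNA carried by plasminogen does. Each group held 4 libraries. None of the 3 groups had EACA or RNases alone, and no single component can be named as the source of a difference from untreated cells. Strain, age and sex of the mice, and whether replicate libraries stem from different mice or cultures, are not given in the labels, so the p-values measure the spread between these libraries, which may be technical.

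Integrins are cell surface receptors made of 1 alpha and 1 beta chain, and a chain reaches the surface in a pair. They bind extracellular matrix or counter-receptors on other cells, switch between low- and high-affinity states when talin and kindlin bind the beta tail, and pass signals on through Src and Syk family kinases. In macrophages, Itgb2 (CD18) pairs with Itgal (LFA-1, a receptor for ICAMs), with Itgam (Mac-1, a receptor for complement fragment iC3b and fibrinogen that also binds plasminogen) and with Itgax (CD11c, the chain of complement receptor 4 used to mark dendritic cells and some macrophages). Itgb1 pairs with Itga4 (VLA-4, for VCAM-1 and fibronectin) and Itga5 (the fibronectin receptor). Itgav pairs with Itgb3 or Itgb5 to bind vitronectin and other RGD proteins, and with Itgb8 to activate latent TGF-beta.

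Itgam and Itgax lie next to each other on mouse chromosome 7 (GRCm38, Itgam at chr7:128062640-128118491 and Itgax at chr7:128129547-128150657, both on the plus strand), with 11055 bases between them. Their levels were correlated (Pearson correlation 0.913 over 12 libraries), as were those of Itgam and Itgb5 (0.918) on different chromosomes. Both correlations use FPKM as deposited, which placed most genes lower in treated than in untreated cells. Against untreated, 32.9% to 39.9% of the genes tested had a lower value than Itgam or Itgax. Itgav (chr2:83724397-83806916, plus strand) and Itgb5 (chr16:33829665-33949338, plus strand) had the largest rise and the largest fall of the 10 genes. The promoters of these 4 genes are shown for that reason, each of 300 bases (250 before the annotated start and 50 from it on), 5′ to 3′ on the gene's strand, from RefSeq on GRCm38.p6. Capitals mark matches, on either strand, to 4 searched motifs: the core of a PU.1 site (GAGGAAG), the Sp1 box (GGGCGG), the AP-1 site (TGANTCA) and the interferon-stimulated response element (GAAANNGAAA).
Itgam: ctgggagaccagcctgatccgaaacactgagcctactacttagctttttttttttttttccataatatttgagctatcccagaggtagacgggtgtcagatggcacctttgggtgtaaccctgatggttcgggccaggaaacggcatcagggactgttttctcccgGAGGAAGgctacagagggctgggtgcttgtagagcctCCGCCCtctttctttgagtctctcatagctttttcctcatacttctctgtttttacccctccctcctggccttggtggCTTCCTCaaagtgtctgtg
Itgax: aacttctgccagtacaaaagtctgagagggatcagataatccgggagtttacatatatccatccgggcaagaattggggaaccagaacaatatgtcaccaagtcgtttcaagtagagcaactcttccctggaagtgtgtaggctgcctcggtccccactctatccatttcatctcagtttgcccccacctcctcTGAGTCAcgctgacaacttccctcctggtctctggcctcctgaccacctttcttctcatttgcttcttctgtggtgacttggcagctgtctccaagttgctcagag
Itgav: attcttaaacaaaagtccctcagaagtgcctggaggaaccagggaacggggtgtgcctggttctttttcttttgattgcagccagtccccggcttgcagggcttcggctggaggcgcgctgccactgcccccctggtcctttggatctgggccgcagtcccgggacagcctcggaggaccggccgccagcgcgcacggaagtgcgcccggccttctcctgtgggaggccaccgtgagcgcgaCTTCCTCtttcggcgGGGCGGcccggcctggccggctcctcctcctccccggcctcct
Itgb5: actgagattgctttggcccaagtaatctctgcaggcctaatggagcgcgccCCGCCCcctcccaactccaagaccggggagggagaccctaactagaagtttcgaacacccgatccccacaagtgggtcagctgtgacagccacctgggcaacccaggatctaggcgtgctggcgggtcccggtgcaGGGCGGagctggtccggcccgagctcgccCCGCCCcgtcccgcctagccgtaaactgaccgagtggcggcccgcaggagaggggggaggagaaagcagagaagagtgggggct
A promoter was found in the RefSeq table for 7 of the 10 genes, and Itgal, Itgb2 and Itgb3 are named only. The Itgam promoter held 2 matches to the PU.1 core, which 13.6% of the 32851 promoters in the table contain, and 1 match to the Sp1 box, which 35.7% contain. In the Itgax promoter the 1 match was to AP-1, present in 7.81% of promoters. The Itgav promoter held 1 PU.1 core and 1 Sp1 box, and the Itgb5 promoter held 3 Sp1 boxes. Matches to the Sp1 box were also present in the promoters of Itga4, Itga5 and Itgb1, and none of the 7 promoters matched the interferon element, which 3.44% of promoters contain. No matches overlapped, apart from the AP-1 match that reads the same on both strands. The neighbouring genes had 6 (Itgam) and 5 (Itgax) CpG steps in the promoter, near the median of 7 over all promoters. Itgav had 24, Itgb1 had 27 and Itgb5 had 20, more than in the Itgam and Itgax promoters. A match describes the letters of the window and is not evidence of binding.

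Depth, read from the spacing of low FPKM values, ran from 12940874 to 22676920 counted reads per library. The noncoding gene Gm26917 took 10.3 to 15.2% of them. Of the macrophage markers listed, 8 of 8 were measured, with a summed level of 5297 to 5899 FPKM in untreated, 4131 to 6063 in PLG+EACA and 4056 to 4618 in PLG+EACA+RNase libraries, led by lysozyme (Lyz2). Dendritic cell genes were present too, as cultures in GM-CSF are known to contain such cells: the summed level of 8 markers was 69.3 to 105, 78.6 to 146 and 116 to 145 FPKM, mostly from Ccr7. Lymphocyte markers summed to at most 0.504 FPKM in any library. The sums over all libraries were 11.4 to 52.7 FPKM for neutrophil, 6.22 to 22.9 for stromal and endothelial, and 10.6 to 16.02 for mast cell, basophil and eosinophil markers, and Ly6g was listed at 0 in all untreated libraries. Relative to all genes tested, the median log2 fold change was -0.26 for PLG+EACA and -0.20 for PLG+EACA+RNase against untreated, so FPKM as deposited placed most genes lower in treated cells. Scaling the libraries by median-of-ratios factors removed this shift, and its outcome is given beside the integrin genes and the gene lists.

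**Figure D1:**
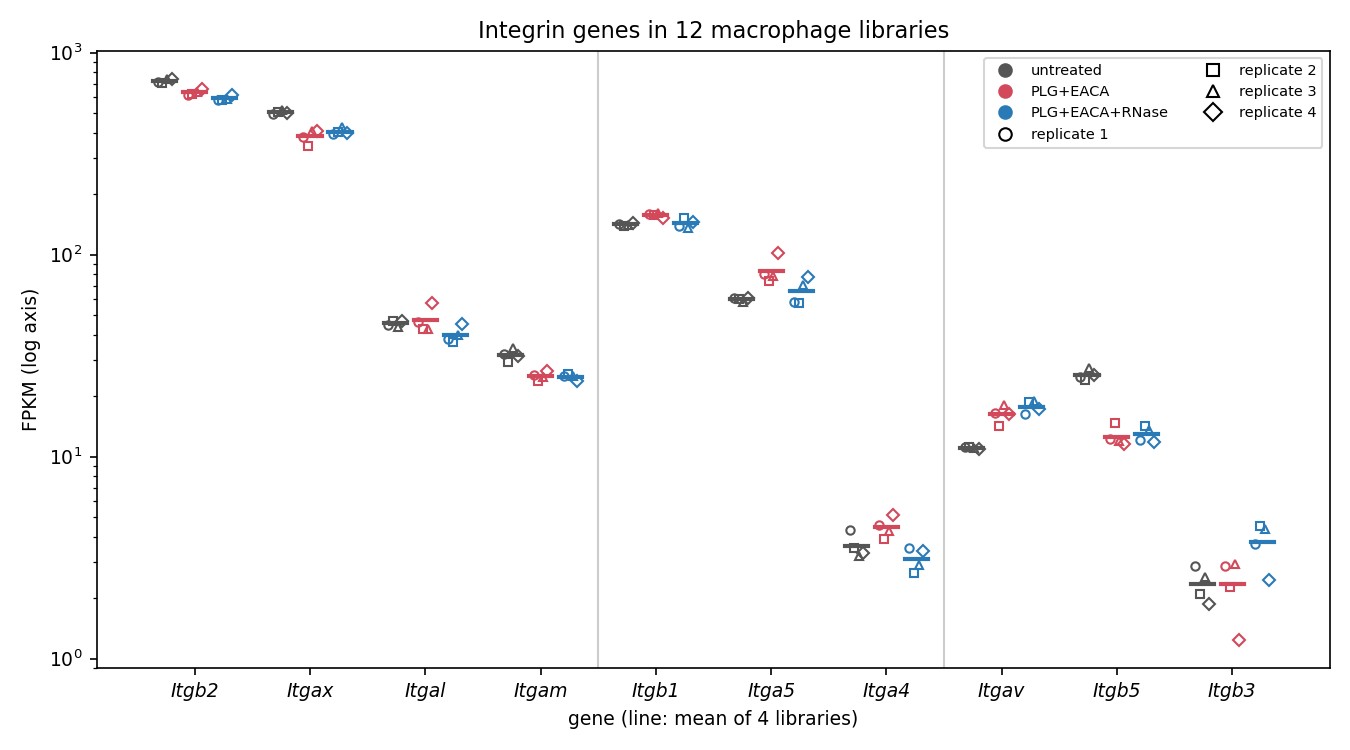
FPKM (log axis) of the 10 integrin genes in each of the 12 libraries, coloured by group with the marker shape giving the replicate and a line at each group mean; vertical lines separate the CD18 family, the Itgb1 family and the Itgav family. Itgb2 and Itgax stand highest in every library, Itgb5 is lower in both treatments, and Itgb3 and Itga4 stand lowest.

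In untreated macrophages the transcripts of the leukocyte integrins were the most abundant. Itgb2 had 726 ± 17.0 FPKM and Itgax 507 ± 11.8 (SD, n = 4), followed by Itgb1 at 141 ± 2.06. Itga5 (59.97 ± 1.18), Itgal (45.6 ± 1.66), Itgam (32.0 ± 2.10) and Itgb5 (25.4 ± 1.47) formed a middle range. Itgav (11.02 ± 0.110), Itga4 (3.60 ± 0.501) and Itgb3 (2.34 ± 0.446) were lowest, and no 2 neighbours in this order overlapped in their 4 libraries. Itgb2 made up 81.2% ± 0.224 of the FPKM of the 4 beta chains, and Itgax 76.9% ± 0.544 of that of the 6 alpha chains. Itgax thus exceeded Itgam 15.9-fold in these GM-CSF cultures. The level of Itgam is uncertain, because 68.7% of its exon bases also belong to the annotated gene Gm49368 on the same strand and the rule for shared reads is not given in the sources used here. Gm49368 itself had a mean of 0.090 FPKM over the 12 libraries, so few shared reads were counted for it. If shared reads were discarded, Itgam is too low here. This limit also covers the ranks, shares and ratios that include Itgam.

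The order changed at its lower end with treatment. In PLG+EACA cells the mean of Itgav (16.2 ± 1.59 FPKM) stood above that of Itgb5 (12.5 ± 1.44), although the ranges of their libraries overlapped. In PLG+EACA+RNase cells Itgav (17.7 ± 1.21) again stood above Itgb5 (12.9 ± 1.10), without overlap, and Itgb3 (3.76 ± 0.952) stood above Itga4 (3.12 ± 0.416), with overlap. The upper 6 places, from Itgb2 to Itgam, kept their order in all 3 groups.

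Macrophages given PLG+EACA had higher Itga4, Itga5, Itgav and Itgb1 and lower Itgam, Itgax, Itgb2 and Itgb5 than untreated cells. These were 4 of 10 genes higher, where 14.9% of all genes tested were called higher, and 4 of 10 lower, where 53.4% of all genes were. The median log2 fold change of the 10 genes was 0.00, and that of all genes tested -0.26. After median-of-ratios scaling, 5 genes were higher (27.3% of all genes) and 1, Itgb5, was lower (26.4% of all genes). The falls of Itgam, Itgax and Itgb2 did not pass after this scaling and passed in the other 18 of 19 alternatives.

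With PLG+EACA+RNase, Itgav and Itgb3 were higher and Itgam, Itgax, Itgb2 and Itgb5 lower than in untreated cells. The 2 higher genes compare with 16% of all genes tested, and the 4 lower genes with 48.4%. The median of the 10 genes was -0.18, near the -0.20 of all genes. Median-of-ratios scaling gave 4 higher genes (Itga5, Itgav, Itgb1 and Itgb3), against 28.4% of all genes, and Itgb5 as the 1 lower gene, against 26.4%. This comparison and the preceding one use the same 4 untreated libraries, so their results are not independent of each other.

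Set directly against PLG+EACA, the PLG+EACA+RNase cells had lower Itga4, Itga5 and Itgb1, 3 of 10 genes where 8.73% of all genes were called lower. By limma, 0 of 10 genes were called higher, where 12.1% of all genes were. At an unadjusted p under 0.05, 1 gene was higher, Itgb3. Median-of-ratios scaling left 2 genes lower, Itga4 and Itgb1 (11.4% of all genes), and 0 higher (10.6% of all genes). The 3 genes that were lower are the chains of the Itgb1 receptors for fibronectin and VCAM-1.

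**Figure D2:**
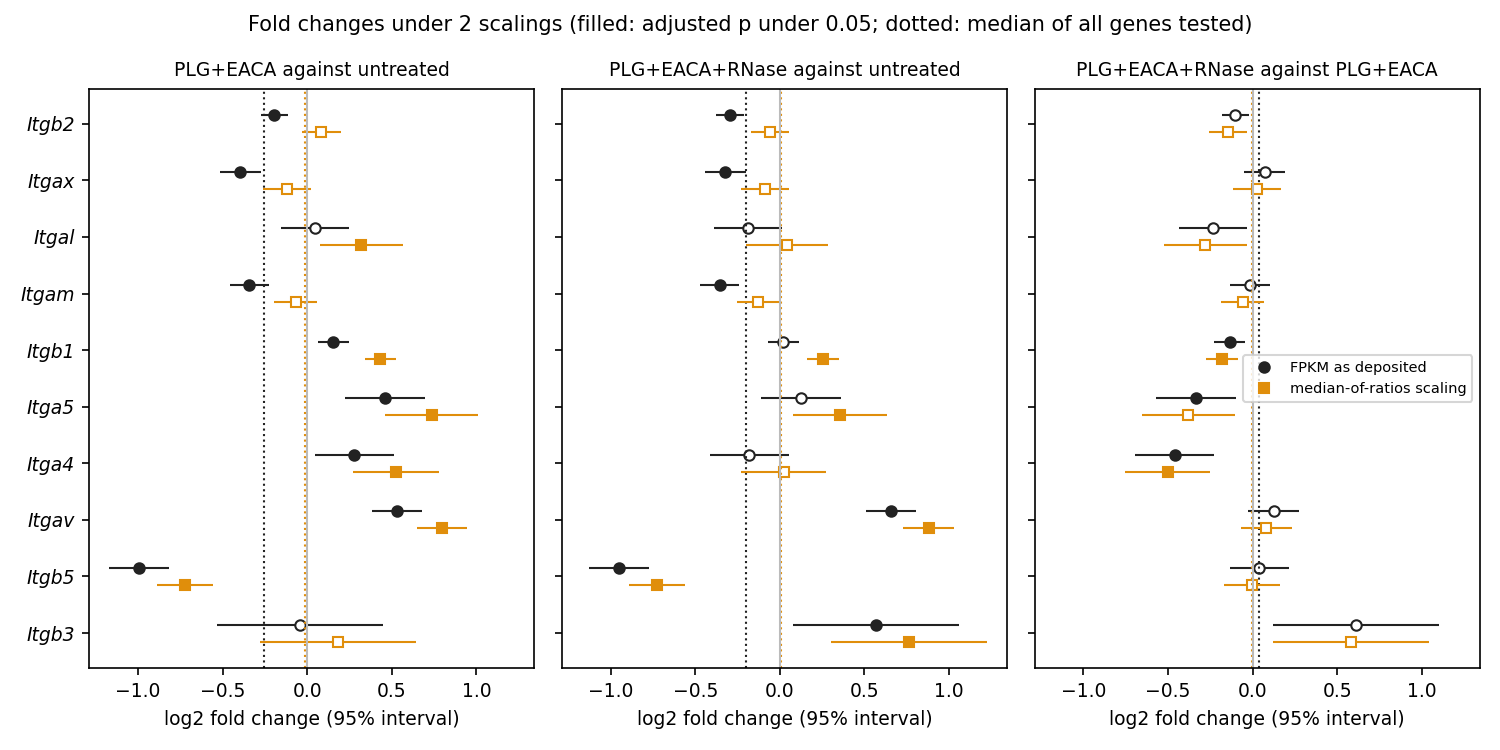
Log2 fold change of each gene on the log2(FPKM + 0.5) scale with its 95% interval, for the 3 comparisons, from FPKM as deposited (circles) and after median-of-ratios scaling (squares); filled symbols have an adjusted p under 0.05 and dotted lines mark the median of all genes tested. Itgb5 stands to the left and Itgav to the right of 0 in both treatment comparisons under both scalings, whereas Itgb2, Itgax and Itgam move to near 0 after scaling.

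Itgb2, the shared beta chain of the leukocyte integrins, was measured at 714, 709.8, 741 and 741 FPKM in untreated libraries. It was 618, 626, 638 and 658 with PLG+EACA and 585, 580.5, 589 and 615 with PLG+EACA+RNase. Every treated library was below every untreated one. The log2 fold change was -0.19 (SE 0.037, adjusted p = 0.000627) for PLG+EACA and -0.29 (adjusted p = 3.00e-05) for PLG+EACA+RNase. Median-of-ratios scaling turned the first to 0.08 (adjusted p = 0.188) and reduced the second to -0.06 (adjusted p = 0.349). In bulk RNA, fewer cells with a transcript and less of it per cell cannot be told apart, here and for every gene below.

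Itgax, the CD11c chain, stood at 495, 509, 522 and 501 FPKM in untreated cells. With PLG+EACA the libraries gave 380.0, 344, 411 and 409, and with PLG+EACA+RNase 393, 403, 427 and 397. Treated and untreated libraries did not overlap, whereas the 2 treatments did. The fall was 1.31-fold with PLG+EACA (log2 fold change -0.39, SE 0.056, adjusted p = 6.39e-05) and 1.25-fold with PLG+EACA+RNase (-0.32, adjusted p = 0.000324). After median-of-ratios scaling these were -0.12 (adjusted p = 0.147) and -0.09 (adjusted p = 0.269). Itgax fell from 76.9% of the summed FPKM of the 6 alpha chains to 68.7% ± 1.87 in PLG+EACA and 72.8% ± 1.64 in PLG+EACA+RNase cells, a share that library scaling does not touch.

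Itgam, the CD11b chain, had 32.3, 29.5, 34.5 and 31.6 FPKM in untreated cells. It had 25.3, 23.7, 24.8 and 26.5 with PLG+EACA and 25.1, 25.6, 25.0 and 23.6 with PLG+EACA+RNase. All 8 treated libraries were below the lowest untreated one. The log2 fold changes were -0.34 (SE 0.054, adjusted p = 0.000136) and -0.36 (adjusted p = 0.00011), and after median-of-ratios scaling -0.07 (adjusted p = 0.341) and -0.13 (adjusted p = 0.0818). The difference between the 2 treatments was -0.01 with a 95% interval of -0.13 to 0.10. The ratio of Itgam to Itgax was 0.0631 in untreated, 0.0652 in PLG+EACA and 0.0613 in PLG+EACA+RNase cells, and the smallest p of its 3 comparisons was 0.143 (exact permutation test, two-sided).

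Itgal, the LFA-1 alpha chain, did not pass the test in any comparison of FPKM as deposited with all libraries. Untreated libraries had 44.6, 47.1, 43.8 and 47.0 FPKM, PLG+EACA libraries 46.5, 42.7, 42.7 and 57.8, and PLG+EACA+RNase libraries 38.2, 36.8, 40.2 and 45.1. The 3 groups overlapped, and replicate 4 was the highest library of both treatments. The log2 fold change was 0.05 for PLG+EACA (adjusted p = 0.680) and -0.19 for PLG+EACA+RNase (adjusted p = 0.0922). Median-of-ratios scaling brought the first to 0.32, past the threshold (adjusted p = 0.0293), and the second to 0.04 (adjusted p = 0.769). Without replicate 4 of every group, a choice made after seeing the data, the PLG+EACA value was -0.04 (adjusted p = 0.539) and the PLG+EACA+RNase value -0.23 (adjusted p = 0.00407). The latter also passed without replicate 4 of PLG+EACA (adjusted p = 0.0186) or of PLG+EACA+RNase (adjusted p = 0.0366).

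Macrophage markers moved in both directions beside these falls. Of 8 markers, 3 were higher and 3 lower with PLG+EACA, and 1 higher and 3 lower with PLG+EACA+RNase. After median-of-ratios scaling the counts were 3 and 3 with PLG+EACA and 2 and 1 with PLG+EACA+RNase. Among all genes tested, 14.9% were higher and 53.4% lower with PLG+EACA (27.3% and 26.4% after that scaling). The shares with PLG+EACA+RNase were 16% and 48.4% (28.4% and 26.4%). Csf1r, the receptor for M-CSF, went from 324 ± 7.02 FPKM to 187 ± 4.60 and 186 ± 6.42, and Mertk, a receptor for apoptotic cells, was 2.20-fold and 1.48-fold higher. Of 4 dendritic cell markers tested, 1 was higher and 1 lower with PLG+EACA (2 and 1 after median-of-ratios scaling), and 2 were higher and 1 lower with PLG+EACA+RNase (2 and 1). Zbtb46, a transcription factor of conventional dendritic cells, was 1.29-fold and 1.53-fold higher and Clec9a 2.02-fold and 1.62-fold lower. Ccr7, the most abundant of the list, had 78.5 ± 15.9 FPKM in untreated, 99.9 ± 27.8 in PLG+EACA and 122 ± 15.0 in PLG+EACA+RNase cells, and passed in the last (adjusted p = 0.0105). Flt3 stayed below 1 FPKM in all libraries. The part of a changed mixture of cells in the levels of Itgam and Itgax was not tested.

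Itgb1, the beta chain of the fibronectin and VCAM-1 receptors, had 141, 139, 139.8 and 144 FPKM in untreated cells. PLG+EACA libraries had 159, 157, 161 and 152, and PLG+EACA+RNase libraries 139, 152, 136 and 145. The PLG+EACA libraries lay above all untreated ones, and those with RNase lay on both sides. The rise with PLG+EACA was 1.11-fold (log2 fold change 0.16, SE 0.041, adjusted p = 0.00528), and the value with PLG+EACA+RNase was 0.02 (95% interval -0.07 to 0.11, adjusted p = 0.680). Between the treatments Itgb1 was lower with RNase by -0.13 (adjusted p = 0.0390), a call that held in 7 of 19 alternative settings. Median-of-ratios scaling raised the 2 values against untreated to 0.43 (adjusted p = 5.60e-06) and 0.25 (adjusted p = 0.000369).

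Itga5, the fibronectin receptor alpha chain, had 60.7, 60.3, 58.2 and 60.6 FPKM in untreated cells. It reached 79.8, 73.7, 78.3 and 102 with PLG+EACA, and 58.1, 57.4, 70.6 and 77.7 with PLG+EACA+RNase. All PLG+EACA libraries lay above the untreated ones, while those with RNase spread from below them to well above. The rise with PLG+EACA was 1.38-fold (log2 fold change 0.46, SE 0.109, adjusted p = 0.00257) and was called in all 19 alternatives, from 0.36 to 0.74. Against untreated cells the PLG+EACA+RNase value was 0.12 (95% interval -0.11 to 0.36, adjusted p = 0.334), and it passed after median-of-ratios scaling at 0.36 (adjusted p = 0.0312). With RNase, Itga5 was 1.26-fold lower than with PLG+EACA (adjusted p = 0.0478). This last call held in 7 of 19 alternatives and was lost after median-of-ratios scaling (adjusted p = 0.0503) and without replicate 4 of PLG+EACA (-0.24, adjusted p = 0.111).

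Itga4, the VLA-4 alpha chain, was measured at 4.33, 3.54, 3.22 and 3.33 FPKM in untreated cells. It had 4.59, 3.91, 4.26 and 5.13 with PLG+EACA and 3.51, 2.64, 2.91 and 3.42 with PLG+EACA+RNase, from 527 to 1315 reads per library. The 2 treatments did not overlap, while the untreated range overlapped both. Against PLG+EACA the RNase group was 1.37-fold lower (log2 fold change -0.46, SE 0.107, adjusted p = 0.0151), and this call held in all 19 alternatives, from -0.51 to -0.39. A lower value in that comparison was found for 3.99% of the genes tested. The rise with PLG+EACA over untreated (0.28, adjusted p = 0.0357) held in 12 of 19 alternatives and was lost without untreated replicates 2, 3 or 4 or PLG+EACA replicates 1 or 4 (adjusted p = 0.0679 to 0.101), without the filter (0.0937) and without replicate 4 of every group (0.19, adjusted p = 0.194). For PLG+EACA+RNase against untreated the value was -0.18 (adjusted p = 0.161), and 0.02 after median-of-ratios scaling. Of the exon bases of Itga4, 8.04% overlap Cerkl on the opposite strand.

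**Figure D3:**
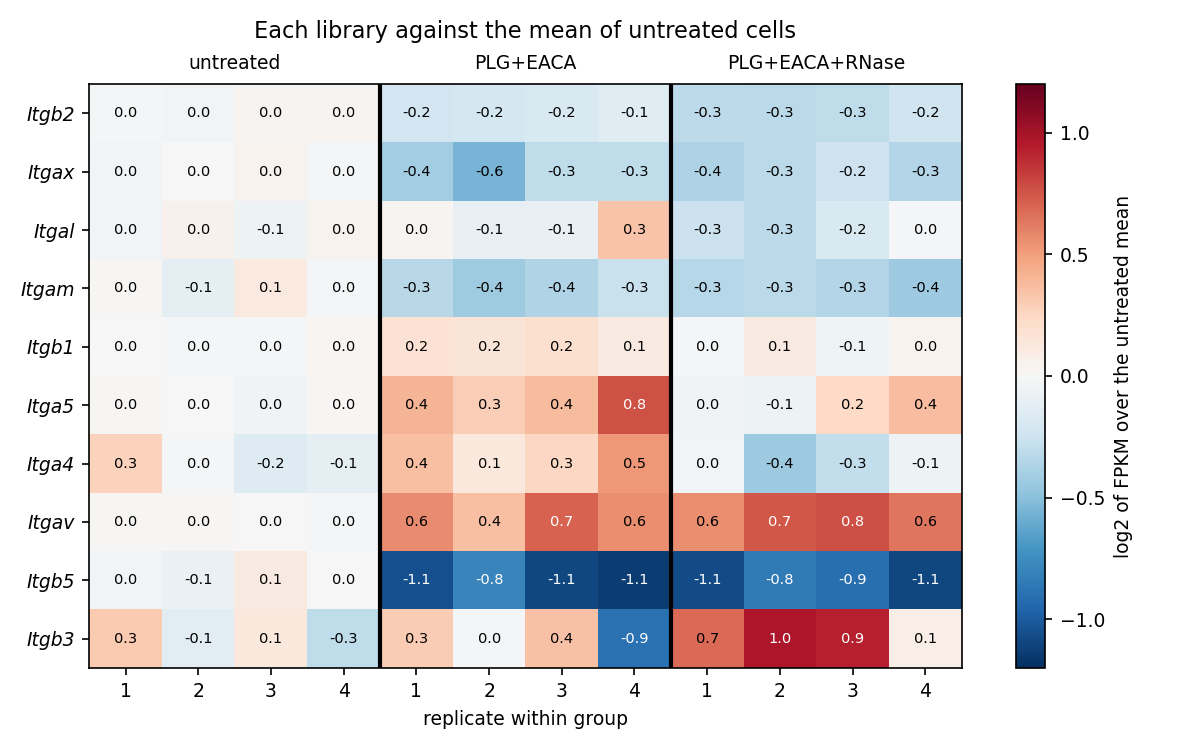
Log2 of the FPKM of each gene in each library over its mean log2 FPKM in untreated cells, with groups separated by vertical lines and replicates in columns (red above and blue below the untreated mean). The Itgb5 and Itgav rows keep 1 colour across all 8 treated libraries, and replicate 4 of both treatments has the highest Itga5 and Itgal and the lowest Itgb3 of its group.

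Itgb5, which with Itgav forms a vitronectin receptor, had 24.8, 23.9, 27.4 and 25.4 FPKM in untreated cells. It had 12.2, 14.7, 11.9 and 11.5 with PLG+EACA, and 12.1, 14.1, 13.5 and 11.9 with PLG+EACA+RNase. The highest treated library was far below the lowest untreated one, and the 2 treatments overlapped almost fully. The fall was 1.99-fold with PLG+EACA (log2 fold change -0.99, SE 0.081, adjusted p = 1.04e-06) and 1.93-fold with PLG+EACA+RNase (-0.95, adjusted p = 1.60e-06). It was the largest change among the 10 genes, and 3.25% and 2.75% of the genes tested had a lower value in the 2 comparisons. All 19 alternatives kept both calls, with -0.72 as the smallest value of each, after median-of-ratios scaling. The treatments differed by 0.04, with a 95% interval of -0.14 to 0.22.

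Itgav, the alpha chain of the vitronectin receptors, changed in the opposite direction. It had 11.10, 11.11, 10.98 and 10.88 FPKM in untreated cells, 16.4, 14.2, 18.1 and 16.2 in the PLG+EACA group, and 16.2, 18.5, 18.8 and 17.2 in the PLG+EACA+RNase group. The untreated libraries were tightly grouped and all treated ones lay above them. The rise was 1.44-fold with PLG+EACA (log2 fold change 0.53, SE 0.068, adjusted p = 3.08e-05) and 1.58-fold with PLG+EACA+RNase (0.66, adjusted p = 6.97e-06). Both calls held in all 19 alternatives, and the treatments differed by 0.12 (95% interval -0.02 to 0.27, adjusted p = 0.209). Of its exon bases, 5.90% overlap Gm13684 on the opposite strand.

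Itgb3, the beta chain shared by the vitronectin receptor and the platelet fibrinogen receptor, was the lowest of the 10 in untreated cells, with 2.87, 2.10, 2.53 and 1.87 FPKM. It had 2.86, 2.26, 2.95 and 1.24 with PLG+EACA, and 3.69, 4.51, 4.40 and 2.44 with PLG+EACA+RNase, from 128 to 449 reads per library. The untreated and PLG+EACA ranges overlapped, and 3 of 4 libraries with RNase lay above all others. Replicate 4 was the lowest library in each of the 3 groups. The value for PLG+EACA against untreated was -0.04 with a wide 95% interval of -0.53 to 0.45. PLG+EACA+RNase was 1.48-fold higher than untreated (log2 fold change 0.57, SE 0.225, adjusted p = 0.0428). That call held in 11 of 19 alternatives and was lost without untreated replicates 2, 3 or 4, PLG+EACA replicate 2, or PLG+EACA+RNase replicates 1, 2 or 3 (adjusted p = 0.0536 to 0.109), and without the filter (adjusted p = 0.101). Against PLG+EACA the value was 0.61 (adjusted p = 0.0732) and, without replicate 4 of every group, 0.56 (adjusted p = 0.0118).

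Platelet and megakaryocyte genes are given beside Itgb3 because its platelet partner Itga2b is one of them. Itga2b had 0.560 ± 0.119 FPKM in untreated, 0.656 ± 0.0831 in PLG+EACA and 1.12 ± 0.195 in PLG+EACA+RNase cells. Of the 3 markers tested of 7 in the table, 2 were higher and 1 lower with PLG+EACA+RNase against untreated. There, 16% of all genes were higher and 48.4% lower. Tubb1, a platelet tubulin, had 1.63 ± 0.216, 1.63 ± 0.417 and 4.63 ± 1.61 FPKM, and the chemokine Pf4, also made by macrophages, fell from 329 ± 61.0 to 141 ± 31.3 and 154 ± 35.4. The summed level of the 7 markers was 272 to 430, 161 to 219 and 175 to 252 FPKM in the 3 groups. The part of such transcripts in the Itgb3 values was not tested.

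The ratio of 2 subunits within a library does not depend on how libraries are scaled, and 8 ratios were compared. With 4 libraries against 4, an exact permutation test cannot give a p below 0.0286, and after adjustment over the 24 tests none passed 0.05. Many of the 24 would have to reach that floor for any to pass, so this outcome does not show that ratios were unchanged. This smallest p was reached by 9 of the 24, each with an adjusted p of 0.0762. An unadjusted p under 0.05 was thus found for these 9.

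Itgav relative to the sum of Itgb3 and Itgb5 was 0.399 ± 0.0247 in untreated, 1.10 ± 0.195 in PLG+EACA and 1.07 ± 0.0908 in PLG+EACA+RNase cells. FPKM of the alpha chain thus went from below that of the 2 beta chains to about the same level. A level set against another gene depends on the gene lengths used, whereas the change between groups does not. All treated libraries, from 0.837 to 1.28, lay above the untreated range of 0.367 to 0.427 (exact permutation p = 0.0286 for both treatments). The value rose 2.74-fold and 2.68-fold on the log scale, and the treatments differed by an exact permutation p of 0.800.

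Itgb3 relative to Itgb5 was 0.0923 ± 0.0174 in the untreated group, 0.186 ± 0.0667 in PLG+EACA and 0.289 ± 0.0562 in PLG+EACA+RNase cells. The PLG+EACA+RNase libraries lay above all untreated ones (exact permutation p = 0.0286), while the PLG+EACA libraries overlapped with untreated (exact permutation p = 0.0571). The balance of the beta chains was therefore measured as 3.12-fold further towards Itgb3 with PLG+EACA+RNase, with Itgb5 still the more abundant in every library.

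Itgb1 relative to Itgb2 was 0.194 ± 0.00398 in untreated, 0.247 ± 0.0119 in PLG+EACA and 0.242 ± 0.0138 in PLG+EACA+RNase cells. Both treatments stood wholly above untreated cells (exact permutation p = 0.0286 each), and they overlapped with each other (exact permutation p = 0.514). Itgb1 rose from 15.8% ± 0.285 of the FPKM of the 4 beta chains to 19.5% ± 0.726 and 19.0% ± 0.844. The share of Itga5 in the 6 alpha chains was 9.11% ± 0.318 in the untreated group, 14.8% ± 1.24 in PLG+EACA and 11.8% ± 1.46 in PLG+EACA+RNase cells.

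Of the remaining ratios, 3 set PLG+EACA apart from untreated cells. Itgb2 relative to the sum of its 3 alpha chains was 1.24 ± 0.0285, 1.39 ± 0.0914 and 1.26 ± 0.0524 in the 3 groups, with PLG+EACA above both others (exact permutation p = 0.0286 each). Itgal relative to Itgam was 1.43 ± 0.142, 1.89 ± 0.202 and 1.62 ± 0.207, with the PLG+EACA libraries above the untreated ones (exact permutation p = 0.0286). Itgb1 relative to Itga4 and Itga5 together was 2.22 ± 0.0509, 1.82 ± 0.271 and 2.11 ± 0.351, with PLG+EACA below untreated (exact permutation p = 0.0286). Itga4 relative to Itga5 stayed between 0.0412 and 0.0713 in all libraries, with overlapping groups.

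**Figure D4:**
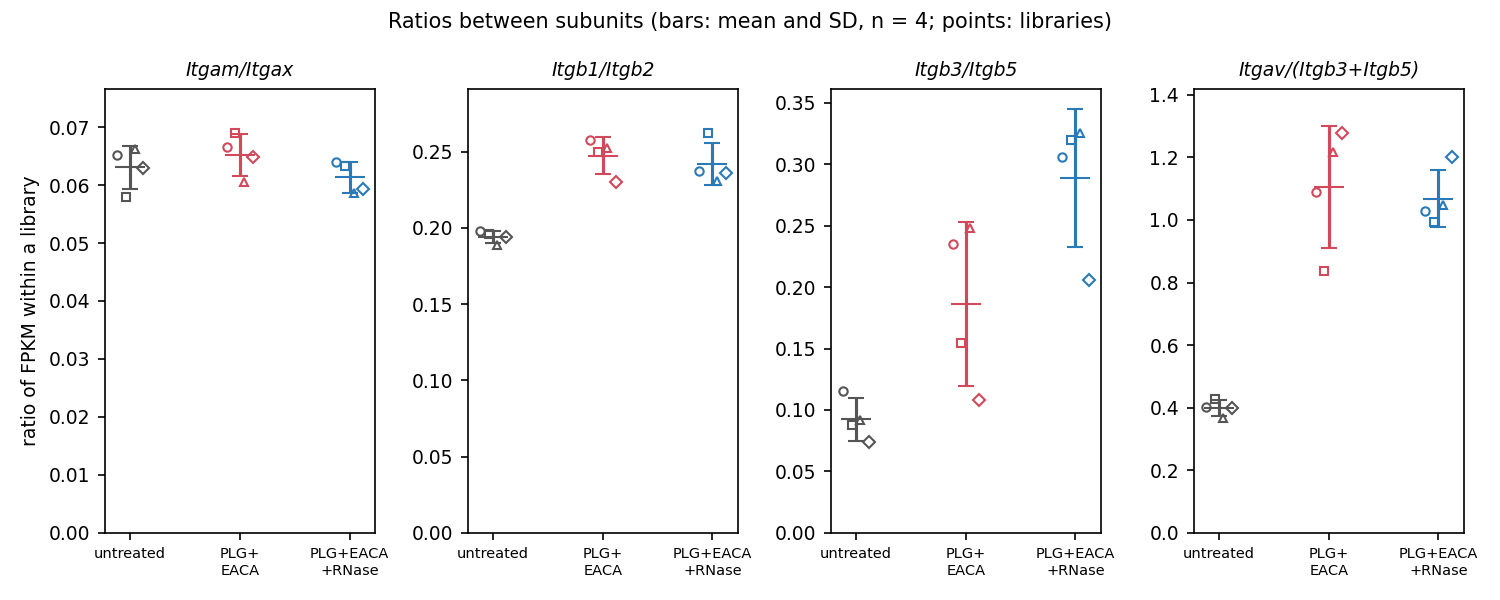
Ratio of FPKM between subunits within each library, with the mean and SD of each group (n = 4) and a point per library, on linear axes from 0. Itgav over Itgb3 plus Itgb5 and Itgb1 over Itgb2 are higher in all treated than in all untreated libraries, and Itgam over Itgax overlaps across the groups.

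Other integrin chains were mostly low. Of 16 further subunit genes, 11 were below 1 FPKM in every library and 4 could be tested. Itgb8, the partner of Itgav in the activation of latent TGF-beta, had 0.241 ± 0.0773 FPKM in untreated, 1.64 ± 0.340 in PLG+EACA and 1.27 ± 0.421 in PLG+EACA+RNase cells. Its rise was 2.86-fold (adjusted p = 1.41e-05) and 2.34-fold (adjusted p = 7.88e-05) on the log2(FPKM + 0.5) scale. Itgb8 stood at most at 0.339 FPKM in untreated libraries, so it passed the filter on low values only through treated ones. That filter favoured a higher call, and its adjusted p-values are not separate support for a rise beside Itgav. The untreated level of Itgb8 was far below that of Itgb5. Itga1, a collagen receptor chain, and Itgb7, the partner of Itga4 and Itgae, were lower in both treatments by 1.27-fold to 1.43-fold. Itgae was 1.34-fold lower with PLG+EACA than in untreated cells and 1.45-fold higher with PLG+EACA+RNase than with PLG+EACA. It passed the filter without any PLG+EACA library, where it was at most 0.638 FPKM. Of the falls, that of Itga1 with PLG+EACA+RNase passed after median-of-ratios scaling (adjusted p = 0.00478), and those of Itga1 and Itgae with PLG+EACA and of Itgb7 with either treatment did not (adjusted p = 0.0623 to 0.557).

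Of 21 genes that activate or restrain integrins, 18 were tested. Against untreated cells, 4 were higher and 10 lower with PLG+EACA (6 and 4 after median-of-ratios scaling), and with PLG+EACA+RNase 2 were higher and 6 lower (6 and 3). Among all genes tested, 14.9% were higher and 53.4% lower with PLG+EACA (27.3% and 26.4% after that scaling). The shares with PLG+EACA+RNase were 16% and 48.4% (28.4% and 26.4%). Apbb1ip, which links the GTPase Rap1 to talin, rose 1.34-fold and 1.31-fold, and Cyth1, a cytohesin that binds the Itgb2 tail, rose 1.42-fold and 1.41-fold. Rap1b itself rose 1.32-fold with PLG+EACA, from 103 ± 2.41 to 136 ± 6.75 FPKM, and was 1.24-fold lower with PLG+EACA+RNase than with PLG+EACA (adjusted p = 0.00551). Fyb, the adaptor ADAP, fell 1.75-fold and 1.65-fold, and Sharpin, an inhibitor that binds alpha tails, fell 1.31-fold with PLG+EACA+RNase. Sharpin had 12.5 ± 0.548 FPKM in untreated, 10.5 ± 0.533 in PLG+EACA and 9.41 ± 0.406 in PLG+EACA+RNase cells. In the direct comparison of treatments, 2 genes were higher with RNase and 1 lower (2 and 2 after median-of-ratios scaling). There, 12.1% of all genes were higher and 8.73% lower (10.6% and 11.4%). The higher ones were Fblim1 (migfilin, 7.83 ± 2.03 against 15.2 ± 3.14 FPKM) and Rassf5 (the Rap1 effector RAPL, 4.06 ± 0.2003 against 5.43 ± 0.864). Untreated cells had 15.9 ± 1.11 FPKM of Fblim1 and 6.02 ± 0.319 of Rassf5.

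Among 18 tested genes of 20 in the adhesion complex and its signalling, 5 were higher and 9 lower with PLG+EACA (8 and 5 after median-of-ratios scaling), and 2 higher and 6 lower with PLG+EACA+RNase (8 and 4). The shares of all genes higher and lower were 14.9% and 53.4% with PLG+EACA (27.3% and 26.4% after that scaling). They were 16% and 48.4% with PLG+EACA+RNase (28.4% and 26.4%). Ptk2b, the kinase Pyk2 of leukocyte adhesion, rose 1.70-fold and 1.66-fold. Vav1, an exchange factor downstream of leukocyte integrins, fell from 46.2 ± 1.52 FPKM to 19.8 ± 1.29 and 25.9 ± 4.31. The adaptor Parvg fell 1.58-fold and 1.503-fold, and Lpxn, the leukocyte relative of paxillin, 1.65-fold and 1.69-fold. Between treatments 3 genes were higher and 3 lower with RNase, where 12.1% of all genes were higher and 8.73% lower. Pxn (paxillin) was 1.30-fold and Actn4, an actin crosslinker, 1.32-fold higher, and Vasp, an actin regulator, was 1.19-fold lower.

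Of 18 ligand genes, 12 were tested, with 6 higher and 4 lower with PLG+EACA (7 and 1 after median-of-ratios scaling) and 3 higher and 4 lower with PLG+EACA+RNase (5 and 1). All genes tested had 14.9% higher and 53.4% lower with PLG+EACA (27.3% and 26.4% after that scaling). With PLG+EACA+RNase they had 16% and 48.4% (28.4% and 26.4%). Icam1, the ligand of LFA-1 and Mac-1, had 134 ± 6.50 FPKM in untreated, 174 ± 12.9 in PLG+EACA and 141 ± 5.75 in PLG+EACA+RNase cells. Vcam1, the ligand of VLA-4, had 0.941 ± 0.0994, 2.54 ± 0.609 and 1.52 ± 0.512. Both were higher with PLG+EACA than in untreated cells (adjusted p = 0.000113 and 0.000181) and lower with PLG+EACA+RNase than with PLG+EACA (adjusted p = 0.00703 and 0.0307). Cd47, a partner of Itgav and Itgb3, had 25.1 ± 1.30, 32.3 ± 5.47 and 23.5 ± 1.91 FPKM in the 3 groups. It was also lower with PLG+EACA+RNase than with PLG+EACA, by 1.36-fold. In that comparison 3 ligand genes were lower and 0 higher by limma, where 8.73% of all genes were lower and 12.1% higher. At an unadjusted p under 0.05, 1 ligand gene was higher, Mfge8 (adjusted p = 0.0560). Thbs1 (thrombospondin) was 2.25-fold and Spp1 (osteopontin, bound by Itgav receptors) 1.22-fold higher with PLG+EACA+RNase than in untreated cells. Thbs1 had 37.5 ± 12.6 FPKM in untreated, 83.7 ± 35.2 in PLG+EACA and 86.7 ± 35.3 in PLG+EACA+RNase cells. Spp1 had 562 ± 28.3, 634 ± 37.1 and 689 ± 56.9 in the same order. C3, the source of iC3b, fell 1.46-fold and 1.41-fold. Tgfb1, whose latent form is bound by Itgav receptors, fell 1.35-fold and 1.33-fold, which was lost in both cases after median-of-ratios scaling (adjusted p = 0.174 and 0.114).

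All 12 tetraspanins and surface partners were tested. Each treatment had 4 higher and 5 lower than untreated cells, and after median-of-ratios scaling 7 were higher in each, with 2 lower in PLG+EACA and 3 in PLG+EACA+RNase. Shares of all genes higher and lower were 14.9% and 53.4% with PLG+EACA (27.3% and 26.4% after that scaling). With PLG+EACA+RNase the shares were 16% and 48.4% (28.4% and 26.4%). Sdc4, the syndecan that acts with the fibronectin receptor, had 21.0 ± 0.601 FPKM in untreated, 49.7 ± 6.17 in PLG+EACA and 34.1 ± 4.31 in PLG+EACA+RNase cells. It was the 1 gene of this group called between the treatments (1.45-fold lower with RNase, adjusted p = 0.00627), in the same direction as Itga5 and Itgb1. In that comparison 8.73% of all genes were lower and 12.1% higher. Plaur, the urokinase receptor and a partner of Mac-1, was 1.48-fold higher with PLG+EACA+RNase than in untreated cells. Its level was 183 ± 9.80 FPKM in untreated, 249 ± 36.5 in PLG+EACA and 271 ± 27.1 in PLG+EACA+RNase cells. Cd151, a tetraspanin of laminin-binding integrins, fell 1.69-fold and 1.64-fold, Cd37 fell 1.59-fold with PLG+EACA, and Bsg fell 1.30-fold and 1.32-fold, the first of which was lost after median-of-ratios scaling (adjusted p = 0.169).

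Genes with the most similar pattern to the 4 integrins of largest change were ranked by Pearson correlation of log2(FPKM + 0.5) over the 12 libraries, which share their group structure and depth. For Itgb5 they were Tspan14 (0.993), Manba (0.993) and Uggt1 (0.992). For Itgav they were Rabgef1 (0.987), AW011738 (0.983) and Dnajb6 (0.983). For Itgb3 they were Ccser2 (0.972), Dennd4a (0.964) and P2ry2 (0.959), and for Itga5 B4galt5 (0.962), Kat2b (0.961) and Gm10134 (0.959). Among the 10 integrins themselves the closest pairs over the 12 libraries were Itgam with Itgb5 (0.918) and Itgam with its neighbour Itgax (0.913).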

How the data were processed

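The deposited table gave FPKM per gene and library. The authors' values had no scaling between libraries beyond that to depth: FPKM times gene length sums to the same total in every library. The build GRCm38.p6 and the tools DESeq2 1.40.2, featureCounts 2.0.6, STAR 2.7.11a, FastQC 0.12.1 and cutadapt 4.5 come from the submitters' processing notes. Their settings, the annotation, the use of strand and the rule for reads shared by overlapping genes are not given in the sources used here. The library kit was directional, per the labels' protocols. Low values stepped in whole reads (100% within 0.1 of a whole number), which gave 12940874 to 22676920 counted reads per library. Read numbers describe counting error only.

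The 11165 genes with 1 FPKM or more in 4 or more of 12 libraries were fitted as log2(FPKM + 0.5) with limma 3.58.1 in R 4.3.3, with 1 mean per group, all 12 libraries in 1 model and moderated variances with trend. Tests were two-sided, adjusted by Benjamini-Hochberg over all 11165 genes within a comparison, with a threshold of 0.05. "Higher", "lower", "rose" and "fell" in counts of genes refer to this threshold. The pseudocount understates the fold of low genes. Ratios were compared by exact permutation of 4 against 4 libraries, adjusted over 24 tests. The fit was tested on simulated data. Alternatives were pseudocounts of 0.1 and 1, no filter, median-of-ratios scaling, rescaling without Gm26917, a replicate block, leaving out each library, and, added after seeing the data, leaving out replicate 4 of every group. The replicate numbers are not stated to mark shared animals or days, so the block was not part of the model.

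The members and the gene lists were chosen with earlier results of these data known. Named are the 10 members, up to 4 list members of smallest p that passed in a comparison, and the 3 genes most correlated with each of 4 members; markers and other values were chosen after they were seen. Coordinates are those of the deposited table and equal those of GENCODE M21 for the 10 genes. Of the list symbols, Cyr61 and Gp1bb were not matched and are not analysed here. The result of 1 gene that this rule names is not reported here.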

Additional observations from a re-analysis of the deposited data

Results flagged for a closer look

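Within each group of 4 libraries, the highest and lowest values of the 10 genes and 8 ratios were examined for a library that stood apart (Dixon's test). Chance gives about 1 in 20 such results, and 2 of 54 groups had one. Itga5 in untreated replicate 3, at 58.2 FPKM, lay below the other untreated libraries, which were within 60.3 to 60.7 FPKM. The ratio of Itgb3 to Itgb5 in PLG+EACA+RNase replicate 4, at 0.206, lay below the other libraries of that group, which were within 0.306 to 0.325.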

How the results depend on the processing

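Over 570 combinations of a gene, comparison and alternative, 495 kept direction and side of the threshold, 44 lost the call, 15 gained one and 16 changed sign. The calls of Itga5, Itgav, Itgb1 and Itgb5 for PLG+EACA against untreated, of Itgav and Itgb5 for PLG+EACA+RNase against untreated, and of Itga4 between the treatments held in all 19 alternatives. Median-of-ratios scaling left 1 gene lower in each treatment against untreated and gave 4 higher with PLG+EACA+RNase. Without the filter, 1 gene was higher with PLG+EACA+RNase against untreated and 1 lower between treatments, where more genes share the adjustment. Leaving out 1 library gave 1 to 2 genes higher with PLG+EACA+RNase against untreated, and 0 to 1 higher and 1 to 5 lower between treatments; the 5 came without PLG+EACA+RNase replicate 4. Fits without a library have fewer samples.

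Changes of sign concerned values that had not passed the test, except Itgb2 for PLG+EACA against untreated, which became 0.085 after median-of-ratios scaling. For the same comparison, Itgb3 became 0.18 after that scaling, and the values without 1 library ran from -0.053 (without PLG+EACA replicate 4) to 0.092 for Itgal and from -0.16 to 0.17 for Itgb3. Without replicate 4 of all groups they were -0.039 and 0.091. For PLG+EACA+RNase against untreated, median-of-ratios scaling gave 0.042 for Itgal and 0.023 for Itga4, and Itgb1 ran from -0.0090 to 0.045 without 1 library. Between treatments, Itgam was 0.0095 when rescaled without Gm26917 and 0.036 without replicate 4 of all groups, and ran from -0.041 to 0.012 without 1 library. Itgb5 was -0.0022 after median-of-ratios scaling and ran from -0.0028 to 0.11 without 1 library. The cause of these changes was not tested.

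A replicate block gave 1 gene higher between treatments, Itgb3 (0.61, adjusted p = 0.0108), and added calls of Itgal (-0.23, adjusted p = 0.0365) and Itgb2 (-0.10, adjusted p = 0.0480) while Itgb1 was lost (adjusted p = 0.0556). It also added Itgal for PLG+EACA+RNase against untreated (-0.19, adjusted p = 0.0345). Same-numbered libraries correlated by -0.18 to 0.33 in their deviations, so the numbers are not shown to pair the samples. Between PLG+EACA and PLG+EACA+RNase these correlations were -0.18, 0.19, 0.055 and 0.33 for replicates 1 to 4. The cause of the value for replicate 4 was not tested. For the ratios, the replicate block (smallest possible exact p 0.125) and the settings with 3 against 4 libraries (0.0571) could not pass 0.05 and say nothing about stability. Itgb3 had the fewest reads, 128 to 449 per library.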
